A study of Mus musculus with 18 samples.

Results

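Malat1, 1 of 12393 genes named on an expression array, was followed across every probe set assigned to it. A probe set is a group of short oligonucleotides on the array that are summarised into 1 signal. The probe annotation gave Malat1 as the only gene symbol for 5 of the 22626 probe sets of the array that were not controls, and all 5 were bright enough to be tested. The gene was chosen because it differed between genotypes in oculomotor nucleus of 10 weeks on these same arrays. For Malat1, that comparison is therefore described here without a test, as are the others that hold oculomotor arrays of 10 weeks. Other genes are given with test values in these comparisons.

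The study compared a brainstem motor nucleus with spinal cord in mice labelled as a model of amyotrophic lateral sclerosis (ALS), a fatal degeneration of motor neurons. Eye movements are largely spared in this disease, while limb and trunk motor neurons of the spinal cord are lost. Total RNA of the oculomotor nucleus and of the cervical spinal cord was labelled with biotin and hybridised to Affymetrix Mouse Expression Set 430A arrays. There were 6 groups of 3 arrays: oculomotor nucleus of mutants at 6 weeks, of controls at 10 weeks and of mutants at 10 weeks, and spinal cord of the same 3 kinds of mice. Control samples carry the same "ALS model" description as the mutants, and there was no control of 6 weeks. The labels name neither the mutated gene, the strain, the sex nor any pooling of animals. The design text calls the 3 arrays of a group independent replicates without saying that they are separate animals, so a p-value here speaks only of spread among arrays, which may be technical. Replicate 1 of control spinal cord was not used, because the order of its signals bore no relation to that of any other array (correlation of 0.0104 to 0.0143 with the other arrays, against 0.957 to 0.985 among those), and that group holds 2 arrays.

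Malat1 is a long noncoding RNA that stays in the nucleus, where it gathers in nuclear speckles, the bodies that store splicing factors. It is one of the most abundant noncoding transcripts of mammalian cells and is strongly expressed in neurons. Its 3′ end is made without an ordinary poly(A) tail: RNase P, the enzyme that trims transfer RNAs, cuts the precursor, releases a small tRNA-like RNA and leaves an end protected by a triple helix around a genome-encoded A-rich tract. An assay that starts from oligo(dT) can prime on that tract or on other runs of A inside the RNA.

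The RefSeq annotation of mouse assembly GRCm38.p6 places Malat1 (gene ID 72289, a lncRNA) on the minus strand of chromosome 19 from 5795690 to 5802672, a span of 6983 bases. The 300 bases around its start, at chr19:5802623-5802922 on the minus strand, are shown as the only Malat1 sequence used here, with the 50 transcribed bases in capitals after the 250 bases that precede them:

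Malat1 promoter: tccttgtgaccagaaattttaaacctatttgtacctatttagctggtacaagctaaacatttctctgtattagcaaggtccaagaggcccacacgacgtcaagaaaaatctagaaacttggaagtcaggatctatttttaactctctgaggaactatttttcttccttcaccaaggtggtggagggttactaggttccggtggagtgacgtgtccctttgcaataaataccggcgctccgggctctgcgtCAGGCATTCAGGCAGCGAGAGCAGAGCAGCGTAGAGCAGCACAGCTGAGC

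A search of this window on both strands found 3 matches to TGACG, the core letters of the cAMP response element, which 20.8% of the 32851 promoter windows of this length hold at least once. There was no match to the TATA box letters TATAAA (held by 13.6% of windows), to CCAAT (37.4%) or to the GC box GGGCGG (35.7%). The positions of the array's oligonucleotides along Malat1 were not analysed here.

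The 5 probe sets were designed from 3 sequence records. 1418188_a_at and 1418189_s_at come from a record that also gave 1418187_at, which the annotation assigns to Ramp2, a gene for a membrane protein that partners the calcitonin-like receptor. 1427285_s_at and 1452378_at come from another record, and 1438403_s_at has a record of its own. In this maker's naming, a suffix _a marks probes shared by transcripts of a gene, and _s marks probes shared by sequences that can belong to different genes. Signals of different probe sets have no common scale, so only differences between groups are set side by side.

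The largest contrasts of Malat1 were seen with 1438403_s_at, whose signal was low on every control array of both regions and high on nearly every mutant array. In oculomotor nucleus it read 120.5, 268.7 and 221.8 in controls of 10 weeks, 3888.5, 8113.2 and 6733 in mutants of 6 weeks, and 8432.7, 4132.1 and 4561.1 in mutants of 10 weeks (replicates 1, 2 and 3). In spinal cord it read 418.4 and 211.5 in controls (replicates 2 and 3), 3949.9, 2320 and 1267.3 in mutants of 6 weeks, and 719.7, 2115.1 and 3171.1 in mutants of 10 weeks. No mutant array of either region or age lay as low as the highest control array, and the lowest mutant array was replicate 1 of the spinal cord at 10 weeks.

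On the scale of log2(signal + 25), used for all differences below, the group levels of 1438403_s_at rose in steps. The means were 7.78 ± 0.53 (SD, n = 3) in control oculomotor nucleus and 8.34 ± 0.64 (n = 2) in control spinal cord, whose arrays overlapped. They were 10.75 ± 1.09 and 11.16 ± 0.81 in mutant spinal cord of 10 and 6 weeks, overlapping each other, and 12.41 ± 0.56 and 12.55 ± 0.55 in mutant oculomotor nucleus of 10 and 6 weeks (n = 3 each), overlapping again. The steps from controls to mutant spinal cord, and from mutant spinal cord to mutant oculomotor nucleus of 10 weeks, had no array in common.

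1418189_s_at followed a similar order over a smaller range. In oculomotor nucleus it read 591, 978.4 and 515.1 in controls, 2659.2, 4189.4 and 2576 in mutants of 6 weeks and 3590.5, 2115.8 and 2818.3 in mutants of 10 weeks. In spinal cord it read 760.3 and 577.5 in controls, 3449.8, 1503.3 and 1494.2 in mutants of 6 weeks and 664.3, 1490.9 and 2312.1 in mutants of 10 weeks. Mutant and control oculomotor arrays did not overlap, whereas in spinal cord of 10 weeks mutant replicate 1 fell between both controls.

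The other probe set of that record, 1418188_a_at, gave the same picture. Its oculomotor signals were 316.2, 391.4 and 308.8 in controls, 1398.3, 2192.9 and 1893.1 in mutants of 6 weeks and 2020.2, 1503.6 and 1670.7 in mutants of 10 weeks. Its spinal signals were 400.2 and 289.2 in controls, 1390.8, 844.4 and 774.6 in mutants of 6 weeks and 362.1, 981.2 and 1446.8 in mutants of 10 weeks. The arrays of both control groups overlapped, and mutant spinal cord of 10 weeks had the widest spread of the 6 groups, with replicate 1 again inside the controls' range.

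The pair from the other record moved little. 1452378_at read 199.8, 183.3 and 196.9 in control oculomotor nucleus, 289.3, 456.7 and 348.1 in mutants of 6 weeks and 332.9, 242.2 and 300.3 in mutants of 10 weeks. In spinal cord it read 192.5 and 170.7 in controls, 404.9, 266.9 and 241.1 in mutants of 6 weeks and 304.5, 274.6 and 317.8 in mutants of 10 weeks. Every mutant array still lay above every control array, although by a small margin, and here replicate 1 of mutant spinal cord did not stand low.

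1427285_s_at had the narrowest range of the 5. Its oculomotor signals were 203.4, 217 and 215.2 in controls, 284.8, 338.4 and 222.2 in mutants of 6 weeks and 307.5, 256.1 and 281.1 in mutants of 10 weeks, and its spinal signals were 332 and 204.5 in controls, 341.6, 215.6 and 194.1 in mutants of 6 weeks and 287.1, 253.6 and 273.9 in mutants of 10 weeks. Mutant and control arrays were apart in oculomotor nucleus and mixed in spinal cord.

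**Figure D1:**
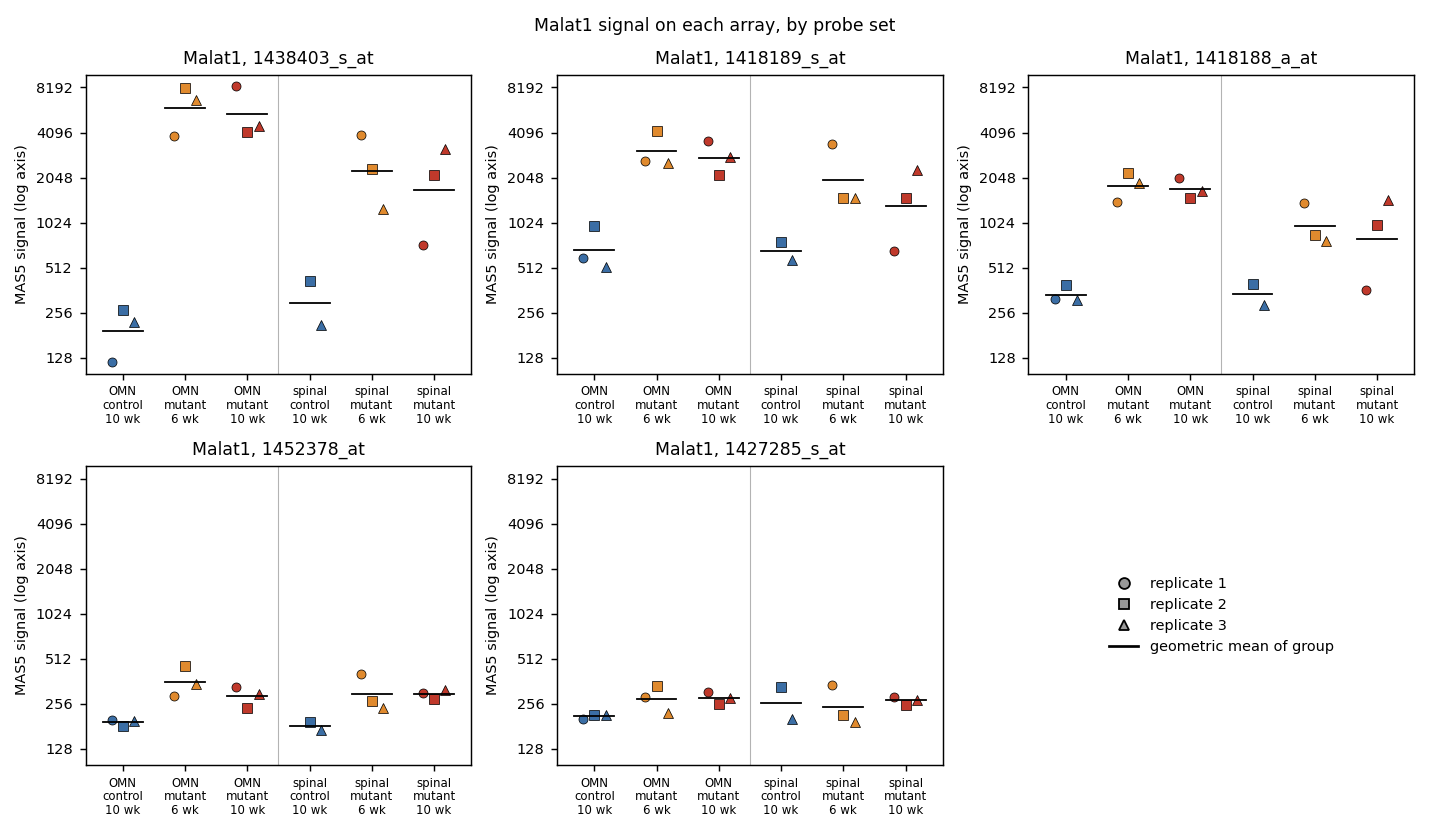
Signal (log axis, scaled by the authors to a common trimmed mean) of each Malat1 probe set on the 17 arrays used, by group; points are arrays, their shape the replicate number, and bars the geometric mean of a group (3 arrays, 2 in control spinal cord). In 1438403_s_at the 5 control arrays lie between 120.5 and 418.4 and the 12 mutant arrays between 719.7 and 8432.7, while 1427285_s_at stays between 194.1 and 341.6 on all arrays.

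By genotype in oculomotor nucleus of 10 weeks, where the gene was chosen, all 5 Malat1 probe sets were higher in mutants. The log2 difference was 4.63 ± 0.47 (SE) for 1438403_s_at, a 24.8-fold difference. It was 2.27 ± 0.33 (4.82-fold) for 1418188_a_at and 2.01 ± 0.37 (4.04-fold) for 1418189_s_at. The pair from the remaining record differed by 0.53 ± 0.18 (1452378_at) and 0.37 ± 0.19 (1427285_s_at). The arrays of the groups did not overlap in any of the 5, against 11.7% of all 13575 tested probe sets without overlap in this direction, and 3 of the 5 passed the threshold used for calls (adjusted p under 0.05, limma with Benjamini-Hochberg) against 1.47% of all tested probe sets. Since these values chose the gene, nothing is read from these counts. In bulk tissue, more cells of a type and more RNA per cell cannot be told apart.

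Between mutant and control spinal cord at 10 weeks, all 5 differences were again positive, and none passed the test over all probe sets. No array of this comparison entered the oculomotor contrast that chose the gene. The fit does take its spread from all 17 arrays, and earlier results of these data were known. 1438403_s_at was higher in mutants by 2.41 ± 0.52 (95% interval 1.32 to 3.50; 5.31-fold), with an adjusted p of 0.0991 (limma, Benjamini-Hochberg) and no overlap between 3 mutant and 2 control arrays. 1418188_a_at differed by 1.18 ± 0.37 (0.41 to 1.96; adjusted p = 0.237, limma) and 1418189_s_at by 0.97 ± 0.41 (0.10 to 1.84; adjusted p = 0.374, limma), both with overlapping arrays. 1452378_at differed by 0.65 ± 0.20 (0.24 to 1.06; adjusted p = 0.228, limma) without overlap, and 1427285_s_at by 0.05 ± 0.21 (-0.39 to 0.49; adjusted p = 0.958, limma). Thus 0 of 5 were called, beside 0.0221% of all tested probe sets. An unadjusted p under 0.05 was reached by 4 of the 5, beside 11.7% of all. Arrays did not overlap, with mutants higher, in 2 of the 5, beside 14.3% of all. The 5 probe sets are assigned to 1 gene and share the arrays, so they are not separate results to set against those shares.

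The spinal calls changed with 1 array. Without mutant spinal cord replicate 1, 2 Malat1 probe sets were called: 1438403_s_at at 3.01 ± 0.47 (adjusted p = 0.00967, limma) and 1418188_a_at at 1.74 (adjusted p = 0.00892, limma). Over all settings tried, the adjusted p (limma) of the former ran from 1.52e-15 to 0.38 and that of the latter from 0.00872 to 0.56, and both lowest values came from centring on spike-ins, where limma pooled the spread of the probe sets almost fully. In the whole table the same omission raised the calls from 3 to 51 probe sets, or 0.376%. That array also stood apart in its control probe sets, whose values follow below.

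The difference between the genotype effects of both regions is given as a description, because it holds the arrays that chose the gene. The mutant minus control difference in oculomotor nucleus exceeded that in spinal cord by 2.22 ± 0.70 in 1438403_s_at, 1.08 ± 0.49 in 1418188_a_at, 1.05 ± 0.55 in 1418189_s_at and 0.32 ± 0.28 in 1427285_s_at. It was -0.12 ± 0.26 in 1452378_at, whose mutants stood as far above controls in spinal cord as in oculomotor nucleus.

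**Figure D2:**
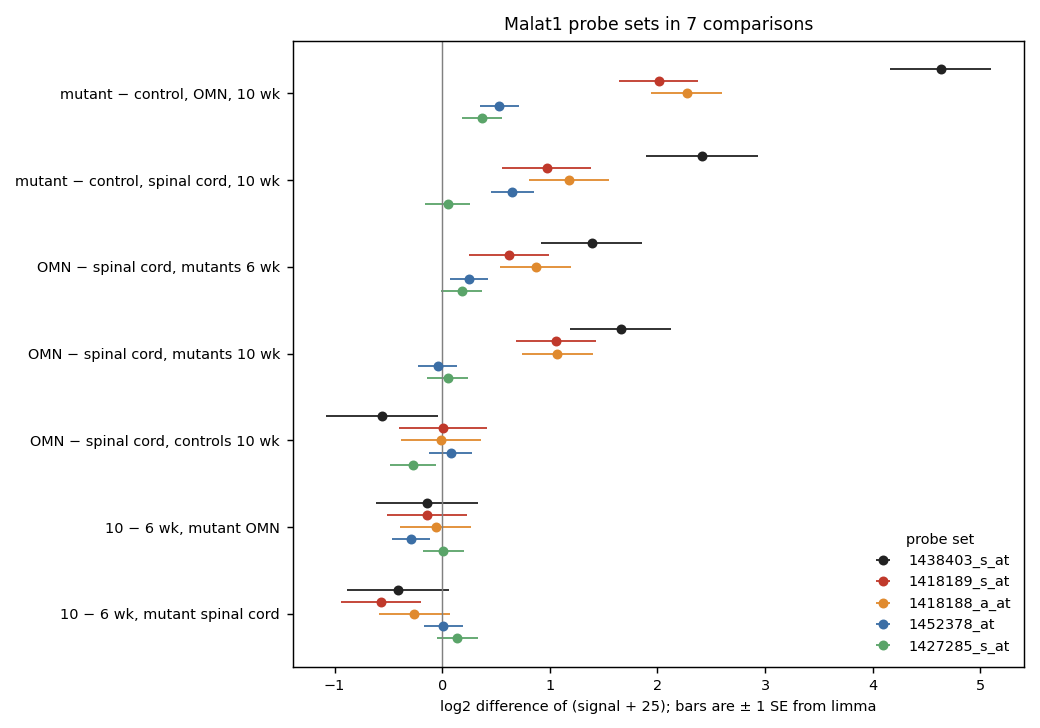
Differences in log2(signal + 25) for the 5 Malat1 probe sets in 7 comparisons; points are limma estimates and bars 1 SE on each side. The genotype differences run from 0.37 to 4.63 in oculomotor nucleus and from 0.05 to 2.41 in spinal cord, while the differences between 10 and 6 weeks in mutants lie between -0.57 and 0.14.

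Between regions in mutants of 6 weeks, 1 of 5 Malat1 probe sets was called, beside 23.9% of all tested probe sets. Nothing is read from that count. The probe set was 1438403_s_at, higher in oculomotor nucleus by 1.39 ± 0.47 (95% interval 0.41 to 2.36, 2.61-fold, adjusted p = 0.037, limma with Benjamini-Hochberg). Its arrays overlapped, since oculomotor replicate 1 lay below spinal replicate 1. 1418188_a_at differed by 0.87 ± 0.33 (0.18 to 1.56; adjusted p = 0.0612, limma) with no overlap, beside 20.5% of all probe sets that were higher without overlap. The other 3 differed by 0.62 ± 0.37 (1418189_s_at, adjusted p = 0.238, limma), 0.25 ± 0.18 (1452378_at, adjusted p = 0.323) and 0.18 ± 0.19 (1427285_s_at, adjusted p = 0.545).

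This call was not stable to leaving out arrays. The adjusted p (limma) of 1438403_s_at became 0.132 without oculomotor replicate 2, 0.0944 without oculomotor replicate 3, 0.0752 without spinal replicate 2 and 0.178 without spinal replicate 3. 1418188_a_at joined the calls without oculomotor replicate 1 (adjusted p = 0.0493, limma), without spinal replicate 1 (0.0325), and without replicate 1 of mutant spinal cord of 10 weeks (0.0056), which enters only the estimate of spread. Over all settings the adjusted p (limma) ran from 0.00668 to 0.351 for 1438403_s_at and from 0.0056 to 0.388 for 1418188_a_at.

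At 10 weeks the regional values are given as a description. Mutant oculomotor nucleus exceeded mutant spinal cord by 1.66 ± 0.47 in 1438403_s_at, 1.07 ± 0.33 in 1418188_a_at and 1.06 ± 0.37 in 1418189_s_at, and by 0.05 ± 0.19 and -0.04 ± 0.18 in 1427285_s_at and 1452378_at. In controls the regional difference was -0.56 ± 0.52 in 1438403_s_at, with the other 4 between -0.27 and 0.08. Control arrays of both regions overlapped in all 5 probe sets.

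Between 6 and 10 weeks no Malat1 probe set passed the test in mutant spinal cord. The differences, 10 minus 6 weeks, were -0.41 ± 0.47 in 1438403_s_at (95% interval -1.39 to 0.56), -0.26 ± 0.33 in 1418188_a_at (-0.95 to 0.43), -0.57 ± 0.37 in 1418189_s_at (-1.35 to 0.20), 0.14 ± 0.19 in 1427285_s_at and 0.01 ± 0.18 in 1452378_at. The adjusted p-values (limma) lay between 0.405 and 0.989. Calls numbered 0 of 5, beside 2.76% of all tested probe sets, and 0 of 5 reached an unadjusted p under 0.05, beside 20.2% of all. These intervals still hold falls of more than 2-fold in 1438403_s_at and 1418189_s_at. The sign in 1438403_s_at and 1418188_a_at turned to 0.19 and 0.29 without replicate 1 of the 10-week group. In mutant oculomotor nucleus the same differences lay between -0.29 and 0.01, given as a description.

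Malat1 probe sets did not move alike, and the spread between them was wide. Over the 17 arrays the SD of 1438403_s_at was 1.97, rank 11 of 13575 tested probe sets, that of 1418188_a_at 1.04 (rank 52) and that of 1418189_s_at 1.00 (rank 58). 1452378_at had an SD of 0.37 (rank 1448) and 1427285_s_at one of 0.25 (rank 5114). Within groups 1438403_s_at also varied widely, with an SD of 0.73 (rank 21). Among 985 genes with at least 3 tested probe sets, the span between the lowest and highest difference by genotype in oculomotor nucleus was 4.26 for Malat1, with Map1b next at 1.91 and a median of 0.34. The values that chose the gene enter that span, so its rank is no finding. In spinal cord the span was 2.36, the widest of the 985, before Map1b at 1.97, while between regions at 6 weeks it was 1.21, rank 20, and the median 0.35. A span can widen with the number of probe sets of a gene, which was 5 for Malat1 and at least 3 for the rest. These ranks are therefore a description.

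Likeness between the Malat1 probe sets followed the design records only in part. Over the 17 arrays, Pearson's r was 0.98 between 1418188_a_at and 1418189_s_at, 0.98 between 1418188_a_at and 1438403_s_at, and 0.95 between 1418189_s_at and 1438403_s_at. With group means removed these were 0.92, 0.91 and 0.86, so arrays of a group that were high in one were high in the other two. 1452378_at had r between 0.82 and 0.85 with these 3, falling to between 0.48 and 0.59 within groups. It correlated at 0.63 with 1427285_s_at from the same record, 0.75 within groups. These correlations share the arrays and their scaling and are a description.

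Neat1, the neighbouring nuclear RNA that builds paraspeckles, gave no call by genotype. Its 1 probe set, 1428083_at, read 1042.9, 1349.8 and 1195.3 in control oculomotor nucleus and 1250.3, 1244.8 and 982.6 in mutants of 10 weeks, and these groups overlapped. The log2 difference by genotype was -0.04 ± 0.18 (95% interval -0.42 to 0.33; adjusted p = 0.944, limma) in oculomotor nucleus and -0.07 ± 0.20 (-0.49 to 0.35; adjusted p = 0.935, limma) in spinal cord. At 6 weeks the regional difference in mutants was -0.20 ± 0.18 (adjusted p = 0.46, limma). At 10 weeks Neat1 was lower in oculomotor nucleus than in spinal cord, by -0.69 ± 0.20 in controls (adjusted p = 0.0272, limma, where 13.6% of all tested probe sets were called) and -0.67 ± 0.18 in mutants (adjusted p = 0.0132, limma, where 19.3% were called). In mutants this is the opposite sign to 1438403_s_at.

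Ramp2, whose probe set shares a design record with both Malat1 probe sets above, gave no call by genotype either. 1418187_at read 629.9, 632.3 and 633.9 in control oculomotor nucleus and 747.4, 627 and 720 in mutants of 10 weeks. The difference was 0.13 ± 0.13 (adjusted p = 0.7, limma) there and -0.02 ± 0.15 (adjusted p = 0.971, limma) in spinal cord.

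**Figure D3:**
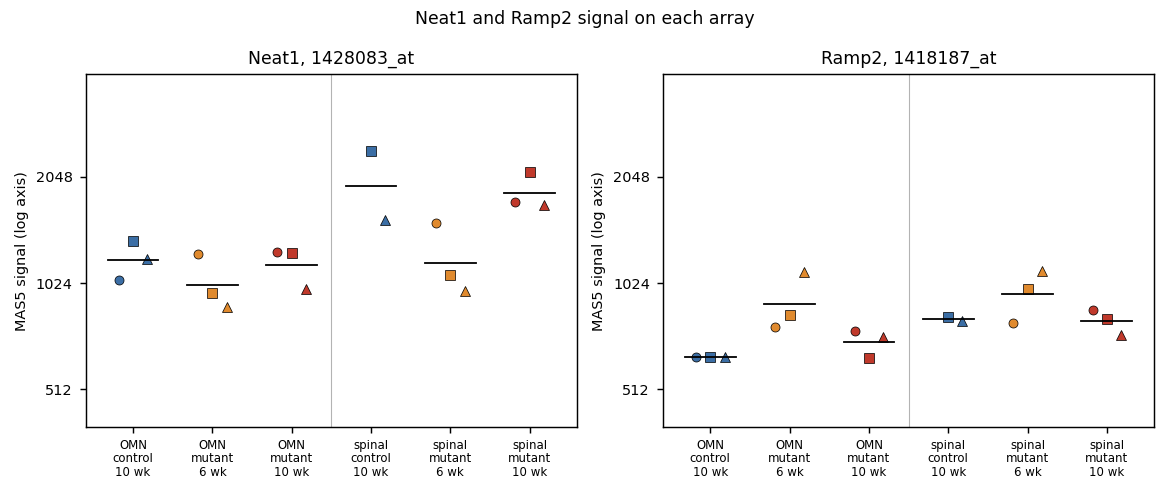
Signal (log axis) of the Neat1 and Ramp2 probe sets on the 17 arrays used, by group; points are arrays and bars geometric means. Mutant and control oculomotor arrays of 10 weeks overlap in both, at 982.6 to 1349.8 for Neat1 and 627 to 747.4 for Ramp2.

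Genes around Malat1 on chromosome 19 gave no call by genotype when 1 probe set stood for each gene (the one with the highest mean signal). Of 16 listed neighbours 9 were tested, Neat1 among them. Of these, 0 were called in oculomotor nucleus (median log2 difference -0.04, against -0.01 over all tested probe sets) and 0 in spinal cord (0.03 against 0.00). The shares called over all tested probe sets were 1.47% and 0.0221%, and nothing is read from 0 calls in a list of this length. Counting all 11 of their probe sets, 1417228_at of Capn1, a calcium-dependent protease, was lower in mutant oculomotor nucleus by -0.74 ± 0.17 (adjusted p = 0.0347, limma), a call lost when any 1 oculomotor array of 10 weeks was left out (adjusted p up to 0.143). Between regions at 6 weeks, 1 of 9 was higher in oculomotor nucleus, beside 23.9% called over all tested probe sets: Ehbp1l1 at 0.47 ± 0.15 (adjusted p = 0.0301, limma; 0.0162 to 0.139 with an array left out).

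A list of long noncoding RNAs that again holds Neat1 gave no call by genotype with 1 probe set for each gene. Of 12 listed, 6 were tested, and 0 were called by genotype in oculomotor nucleus (median 0.17) or spinal cord (median 0.03), beside 1.47% and 0.0221% of all tested probe sets. Meg3, an imprinted neuronal RNA, differed by 0.41 ± 0.13 in oculomotor nucleus (adjusted p = 0.111, limma), and Gas5, a snoRNA host gene, by 0.25 ± 0.13 (adjusted p = 0.411). Rian, the imprinted snoRNA host next to Meg3, differed by 1.15 ± 0.36 in 1452899_at, which stood for it (adjusted p = 0.118, limma). Counting all 16 probe sets, the other 2 of Rian were called higher in mutant oculomotor nucleus: 1428055_at at 0.94 ± 0.20 (adjusted p = 0.0246, limma) and 1427580_a_at at 0.83 ± 0.21 (adjusted p = 0.0489). Each stayed called in 2 of 7 fits that left out an array, with adjusted p (limma) up to 0.137 and 0.188. Between regions at 6 weeks, 3 of the 6 were higher in oculomotor nucleus, beside 23.9% called over all tested probe sets, and stayed so with each array left out in turn: Snhg11 by 1.47 ± 0.28, Meg3 by 1.13 ± 0.13 and Gas5 by 0.63 ± 0.13 (adjusted p = 0.00084, 3.5e-06 and 0.00213, limma). Over all 16 probe sets 11 were called higher.

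Proteins of nuclear speckles and splicing, the compartment in which Malat1 lies, were listed as 26 genes, of which 24 were tested. In mutant oculomotor nucleus 2 were called higher and 0 lower, with a median difference of 0.04. Over all 82 probe sets of these genes 2 were called, where 1.47% of all tested probe sets were. Sfpq, a splicing factor of the paraspeckle, was higher by 0.86 ± 0.15 in 1 of its 4 probe sets (adjusted p = 0.00662, limma), which remained called in all 7 fits with an array left out. Its other probe sets were not called, at -0.38, 0.15 and 0.26. Rbm25, a regulator of splice site choice, was higher by 0.79 ± 0.16 in 1 of its 3 probe sets (adjusted p = 0.016, limma), which remained called in 3 of 7 (adjusted p up to 0.0909). Its other probe sets had the opposite sign, at -0.48 and -0.43, and were not called (adjusted p = 0.143 and 0.21, limma). Members that were not called included Srsf5 at 0.34 ± 0.19, Ddx17 at 0.07 ± 0.11, Nono at 0.16 ± 0.12 and Ddx5 at -0.41 ± 0.11 (adjusted p between 0.0748 and 0.819, limma).

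In spinal cord 0 of the 24 were called by genotype (median -0.03), beside 0.0221% of all tested probe sets, and nothing is read from that count. Sfpq differed there by 0.37 ± 0.17 (unadjusted p = 0.0408, adjusted p = 0.401, limma) and Rbm25 by 0.51 ± 0.17 (unadjusted p = 0.00941, adjusted p = 0.288). Their other probe sets were not called there either, at -0.17, 0.17 and -0.04 for Sfpq and at -0.26 and -0.2 for Rbm25. Between regions at 6 weeks 8 of 24 were called higher in oculomotor nucleus and 0 lower (median 0.29, against 0.03 over all tested probe sets), with 5 to 9 called when an array was left out, and 24 of all 82 probe sets. In this comparison 23.9% of all tested probe sets were called. The smallest p-values were those of Sfpq at 1.19 ± 0.15, Luc7l2 at 0.96 ± 0.14, Srsf11 at 0.52 ± 0.09 and Clk1 at 0.58 ± 0.11. Of the other Sfpq probe sets, 1 stood at -0.36 (adjusted p = 0.0725, limma) and the rest at 0.45 and 0.7, both called. Between 6 and 10 weeks in mutant spinal cord, where Malat1 gave no call, 3 of 24 were called higher, beside 2.76% of all tested probe sets: Luc7l2 by 1.05 ± 0.14, Sfpq by 0.97 ± 0.15 and Clk1 by 0.49 ± 0.11 (adjusted p = 0.00288, 0.00469 and 0.0293, limma). Clk1 was called in 2 of 6 fits with an array left out, and Luc7l2 and Sfpq in all 6. Here too the probe sets of a gene differed: the other 3 of Sfpq stood at -0.33, 0.19 and 0.44 and were not called, and those of Luc7l2 ran from 0.03 to 1.16, with 2 of 5 called.

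Genes for the processing of Malat1 RNA, which encode RNase P subunits, the tRNA 3′ nuclease ELAC2 and writers of N6-methyladenosine, showed 0 calls among 9 tested (14 listed) by genotype in either region, with medians of 0.00 and 0.06, beside 1.47% and 0.0221% of all tested probe sets. Between regions at 6 weeks 2 of 9, beside 23.9% of all tested probe sets, were higher in oculomotor nucleus: Rpp25 at 0.91 ± 0.18 and Pop7 at 0.38 ± 0.12 (adjusted p = 0.0013 and 0.0239, limma), both RNase P subunits. Pop7 was called in 3 of 7 fits with an array left out. Over all 13 probe sets 3 were higher and 1 lower, a probe set of the RNase P subunit gene Rpp14 at -0.41 ± 0.14 (adjusted p = 0.0387, limma). Immediate early genes, which respond within minutes to activity and handling, gave 0 calls among 9 tested (12 listed) in both genotype comparisons, with medians of 0.05 and 0.09 and the same background.

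The probe sets whose pattern over the 17 arrays was most like 1438403_s_at, by Pearson's r among 12540 compared, belonged to Kif5c, a neuronal kinesin (r = 0.955), Smarca4, a chromatin remodelling ATPase (0.95), Csnk2a1, the catalytic subunit of casein kinase II (0.95), Npepps, an aminopeptidase (0.948), and Cbl, a ubiquitin ligase (0.942). The most opposite were those of Sel1l, of the degradation machinery of the endoplasmic reticulum (-0.949), Ythdf1, a reader of N6-methyladenosine (-0.923), Pja2, a ubiquitin ligase (-0.913), Mknk2, a kinase of the translation factor eIF4E (-0.895), and Sh3bgrl2 (-0.887). Other probe sets of the same genes followed in some cases and not in others. The further probe set of Cbl had r = 0.69, those of Csnk2a1 0.22, 0.32 and 0.71, those of Sel1l -0.15, -0.76 and -0.85, and those of Ythdf1 -0.05 and -0.75. It was -0.68 for Kif5c, 0.15 for Smarca4, -0.02 for Npepps and 0.14 for Mknk2, and for Pja2 1 probe set had 0.90 where the others had -0.91 and -0.77. These values describe probe sets chosen by r on the same arrays and are given without a test.

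Handling was followed with the array's own control probe sets, and several of them differed between the groups in which Malat1 differed. The hybridisation spike-ins are the control RNAs BioB, BioC, BioDn and CreX, added to each sample before hybridisation (9 probe sets). Their mean log2 signal was 9.32 to 9.72 on control and 10.01 to 10.14 on mutant oculomotor arrays of 10 weeks. In oculomotor mutants of 6 weeks it was 10.03 to 10.31. Mutants of 10 weeks thus stood 0.60 above controls in oculomotor nucleus, without overlap. In spinal cord the groups overlapped, at 9.40 to 10.00 in controls and 9.28 to 9.98 in mutants of 10 weeks, a difference of -0.15. Between regions at 6 weeks the spike-ins were 0.57 higher in oculomotor nucleus. Another 9 probe sets for these spike-ins gave 0.67 and 0.05 by genotype in oculomotor nucleus and spinal cord, and 0.56 between regions at 6 weeks.

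Repeat and housekeeping controls moved in part with the same arrays. The B1 and B2 repeat probe sets, which read short interspersed elements present in many transcripts, were 0.55 higher in mutant than control oculomotor nucleus (13.62 to 13.74 against 14.23 to 14.25), 0.27 higher in mutant spinal cord and 0.68 higher in oculomotor nucleus than spinal cord at 6 weeks. The beta-actin probe sets were 0.64 and 0.47 higher in mutants of the respective regions. Those of Gapdh were 0.32 and 0.16 higher. The 3′ minus 5′ differences, a measure of RNA integrity and of labelling, differed by genotype in oculomotor nucleus by 0.01 for beta-actin and 0.08 for Gapdh. The leading Malat1 probe sets differed by genotype there by 4.63, 2.27 and 2.01. How far handling can move a single probe set was not tested. The steps of the spike-ins, the repeats and beta-actin in oculomotor nucleus exceed the 0.53 and 0.37 of the remaining pair.

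Centring each array on its hybridisation spike-ins moved the median of all tested probe sets between mutant and control oculomotor nucleus from -0.01 to -0.61. On that scale the Malat1 differences were 4.03 in 1438403_s_at, 1.67 in 1418188_a_at and 1.41 in 1418189_s_at, and the remaining pair turned negative, to -0.07 in 1452378_at and -0.23 in 1427285_s_at. This centring moves all probe sets of an array alike, so their place relative to that median could not change. In spinal cord, where the median moved to 0.15, the 5 lay between 0.20 and 2.56. The part of handling in these differences was not tested.

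The array whose omission changed the spinal calls, mutant spinal cord replicate 1 of 10 weeks, was the only one of the 17 with clear signal from poly-A spike-ins, the bacterial transcripts that are added to RNA before labelling. Their mean log2 signal over 27 probe sets was 8.94 on it and 5.03 to 5.43 on the other 16 arrays. That array also had the highest 18S rRNA signal (8.37, against 6.03 to 7.89) and the lowest 3′ minus 5′ difference of Gapdh (-0.56, against -0.43 to -0.21). It held the lowest Malat1 signal of its group in 1438403_s_at, 1418189_s_at and 1418188_a_at, and not in 1452378_at or 1427285_s_at. The part of its different handling in the Malat1 values was not tested.

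**Figure D4:**
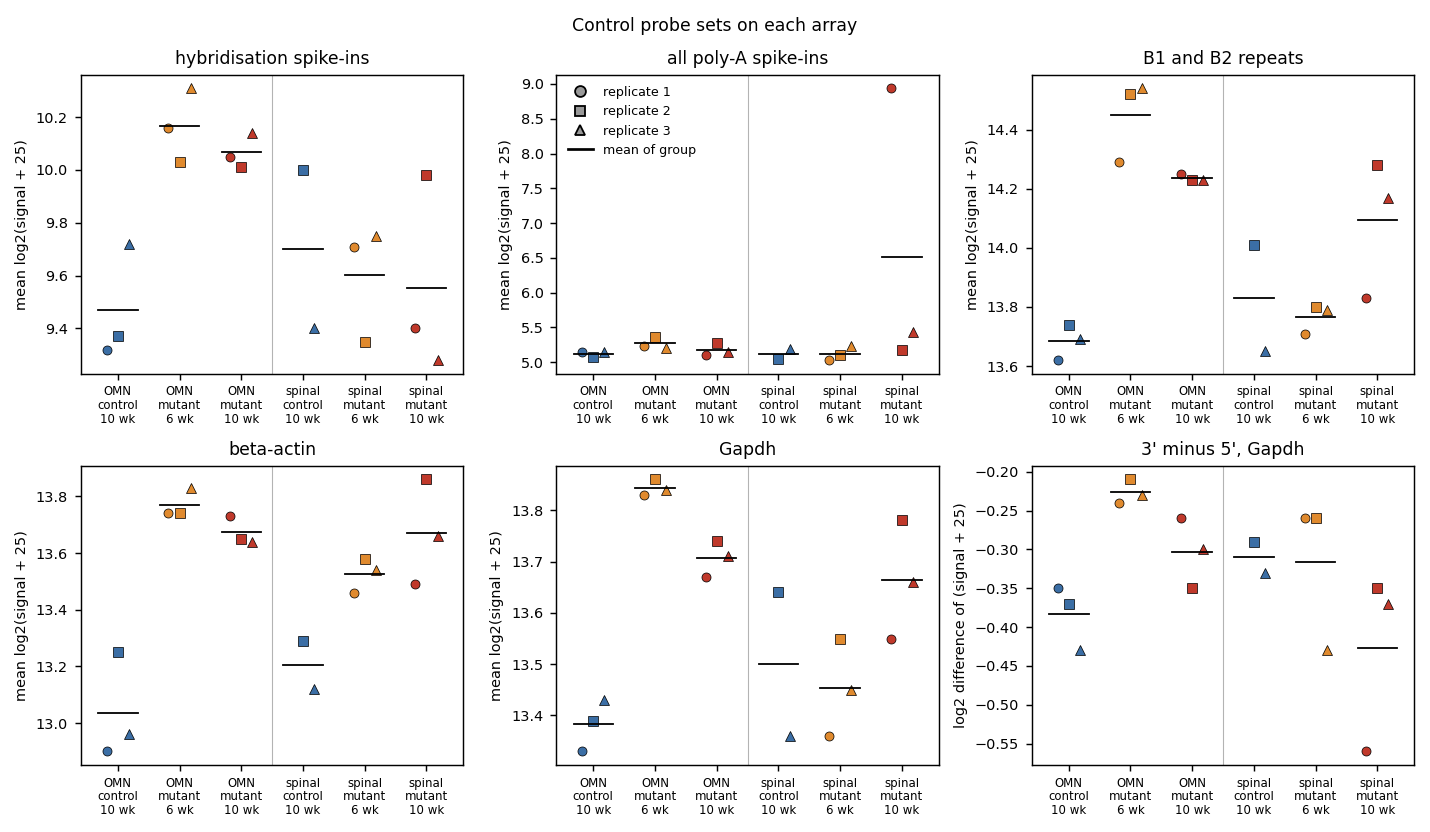
Mean log2(signal + 25) of control probe sets on the 17 arrays used (for Gapdh also the 3′ minus 5′ difference), by group; points are arrays, their shape the replicate number, and bars group means. Hybridisation spike-ins are higher on mutant than on control oculomotor arrays of 10 weeks (10.01 to 10.14 against 9.32 to 9.72), and poly-A spike-ins are present on 1 array, replicate 1 of mutant spinal cord of 10 weeks (8.94).

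Cell type markers gave the make-up of the samples beside these values. The 6 Hox genes of spinal position averaged signals of 47.93 to 79.37 on oculomotor arrays and 963.3 to 1203 on spinal arrays, and the dopamine neuron genes Th and Slc6a3 had group means of 1158 to 1752 in oculomotor nucleus, which lies beside dopamine neurons of the midbrain. The defining markers of oculomotor neurons were weak: group means were 35.97 to 65.5 for Isl1 and 44.2 to 63.9 for Phox2a, and 238.7 to 353.7 for Slc18a3, the vesicular acetylcholine transporter, against 1093 to 1108 in spinal cord. With genotype in oculomotor nucleus, 1 of 5 oligodendrocyte, 1 of 5 microglia and 1 of 3 cranial motor and midbrain neuron markers were called higher, beside 1.47% of all tested probe sets. The last was Slc6a4, the serotonin transporter, with group means of 1250 in controls and 2242 in mutants of 10 weeks. Slc6a3 (1398 and 1158) and Th (1248 and 1300) of the same list were not called. The oligodendrocyte marker called was Cnp, with a log2 difference of 0.52 ± 0.12 (adjusted p = 0.0384, limma). Mbp at 0.53, Mobp at 0.3, Mag at 0.15 and Mog at 0 were not called. The mean signal of the oligodendrocyte list was 5564 to 6050 in controls, 7409 to 8306 in mutants of 10 weeks and 9884 to 10180 in mutants of 6 weeks, and that of the microglia list 572 to 592.9, 648.9 to 660.6 and 626.6 to 693.7. The microglia marker called was Cx3cr1, at 304 in controls and 638.9 in mutants of 10 weeks, while C1qa (718.4 and 646.1) and Tyrobp (309.8 and 261.7) were not called and had lower means in mutants. Pan-neuronal and astrocyte lists gave 0 calls of 6 each there. In spinal cord no marker list gave a call by genotype, where 0.0221% of all tested probe sets were called. Nothing is read from that absence. Of the microglia list, Cx3cr1 differed in spinal cord by 0.97 ± 0.18 (adjusted p = 0.0881, limma), and its other tested members by 0.27 to 0.49. Pituitary genes reached mean signals of 5827 on a mutant and 1576 on a control oculomotor array, and choroid plexus genes 2412 on a control oculomotor array. Their part in the Malat1 differences was not tested.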

How the data were processed

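The deposited values are intensity signals on a linear scale from the authors' run of Microarray Suite 5.0, per the series' design text, and scaled per array (2% trimmed mean 500.13 to 500.16; medians 207 to 226). Of 22690 probe sets 64 controls were set aside, 25 was added and log2 taken. The 40% with the lowest mean (limit 7.38) were left out, leaving 13575. Probe-level data were not analysed here; the number of arrays limits the precision. Annotation gave 1 symbol to 20380 probe sets, several to 691 and none to 1555; 20364 were updated through gene IDs of GRCm38.p6.

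Group means were fitted over 17 arrays in R 4.3.3 with limma 3.58.1 (eBayes with trend), and p-values were adjusted by Benjamini-Hochberg over all tested probe sets within a comparison. The steps were tested on simulated data. Same-numbered arrays did not deviate together (r between -0.09 and 0.13), so the fit has no replicate block. Named genes were Malat1 and Neat1, up to 4 members of a list with the highest signal and up to 4 called members with the smallest p, and the 5 probe sets most and least like Malat1. Ramp2, Capn1, Map1b and further probe sets of Rian were named after their values were seen. The members and lists were chosen with earlier results of these data known.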

Additional observations from a re-analysis of the deposited data

How the results depend on the processing

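Alternatives were quantile normalization, median centring, centring on hybridisation spike-ins, other offsets (100, or a floor), other filters, eBayes without trend, all 18 arrays, the arrays of a comparison alone, a replicate block and each array left out. The oculomotor genotype difference of 1438403_s_at stayed between 4.32 and 4.84 with an array left out. Called Malat1 probe sets by genotype in spinal cord, 0, became 2 with spike-in centring and 0 to 2 with an array left out. Those between regions at 6 weeks, 1, became 0 with quantile normalization, no filter, eBayes without trend or all 18 arrays, 2 with the arrays of the comparison alone, and 0 to 2 with an array left out. Leaving out replicate 1 of mutant spinal cord of 10 weeks there, chosen after seeing the data, gave 2. The genotype by region difference of 1438403_s_at, 2.22, moved to 1.47 with spike-in centring and to 1.62 to 2.68 with an array left out. The causes were not tested.

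With the replicate block, 1438403_s_at differed by 4.63 and 2.51 by genotype in the 2 regions and by 1.39 between regions at 6 weeks, and no Malat1 call changed. Some signs turned. 1427285_s_at turned in the spinal genotype difference to 0 with median centring, -0.32 with all 18 arrays, -0.01 with the block and -0.27 without an array. It turned with spike-in centring to -0.23 (genotype, oculomotor nucleus), -0.39 (regions at 6 weeks) and -0.43 (genotype by region), and ran from -0.59 to 0.05 between control regions without an array. 1452378_at turned with spike-in centring to -0.07 and -0.31 in the first 2 of these. Between ages in spinal cord it turned to -0.04 with quantile normalization, -0.07 with median centring and lay between -0.13 and 0.21 without an array. There 1427285_s_at lay between 0 and 0.37, 1418188_a_at between -0.67 and 0.29, and 1438403_s_at between -0.86 and 0.19. Calls over all probe sets moved from 200 to between 47 and 341 in the oculomotor genotype comparison with an array left out, to 8009 with spike-in centring, 390 with its arrays alone, 118 without the filter and 1 with all 18 arrays; from 3 to between 0 and 51 in the spinal one, and from 374 between ages in spinal cord to between 86 and 257, 27 with spike-in centring, 41 with its arrays alone and 0 with all 18. Spinal genotype calls were 13 with spike-in centring, 5 without the filter, 1 without trend or with its arrays alone, and 0 with all 18. Calls between regions at 6 weeks moved from 3239 to 5568 with spike-in centring and 310 with all 18.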
